A study of Saccharomyces cerevisiae with 24 samples.

Results

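The site described here is 1 of 1711 regions in the deposited table of Yrr1 ChIP-seq signal. It lies on chromosome X from 606408 to 607949 (sacCer3, 1542 bp), upstream of IME1 and across the 5′ end of the noncoding gene IRT1. It was taken by its place in that table, together with every deposited peak that shares at least 1 bp with it, and was selected on its high enrichment over input in these libraries. Its peaks and its enrichment over input are therefore given as a description, without a test. The RefSeq annotation puts 1017 bp of the region (66.0%) inside IRT1 and the other 525 bp beyond the 5′ end of IRT1, so the region is not wholly within the gene.

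Binding of Myc-tagged Yrr1 was measured in Saccharomyces cerevisiae strain S96 lacking its own YRR1 (yrr1Δ), into which 1 of 3 alleles had been introduced. The alleles were that of strain YJM789, that of S96, and the S96 allele with the amino acid change I775E. Each strain was cultured for 2.5 h without or with 4NQO (4-nitroquinoline-N-oxide, which damages DNA) at 0.25 µg/ml in YPD, a rich medium. Each of the 6 groups has 3 anti-Myc libraries (18 in all) and 1 input library (6 in all), so the input cannot be told apart from the group. All strains carry the deletion and the tag, and no untagged strain or strain without Yrr1 was analysed here.

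The zinc cluster protein Yrr1 belongs to the pleiotropic drug resistance network of yeast, and activates genes for membrane transporters, among them SNQ2, whose product exports 4NQO. IME1 encodes the master regulator of entry into meiosis, and its promoter collects nutrient and mating type signals. In cells that have the repressor Rme1, IRT1 is transcribed through the IME1 promoter, and this transcription keeps IME1 off.

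The genes at the site are all on chromosome X. IME1 (YJR094C) runs from 604569 to 605651 on the minus strand, and IRT1 (YNCJ0028C) from 605936 to 607424 on the same strand, so IRT1 ends 285 bp before the IME1 start codon. The near edge of the region is 757 bp upstream of the IME1 start codon. On the other side the next gene, RPL43B, a ribosomal protein gene transcribed away from the site, starts 356 bp beyond the region.

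The stretch common to the strongest MACS2 peak of the region in all 36 lists (18 libraries under both parameter sets) is 240 bp long, at chrX:607215-607454. It is shown because all of these MACS2 peaks cover it. Not every CisGenome peak described below overlaps it. It was read from the R64 RefSeq genome on the plus strand, 5′ to 3′, with the match to the Yrr1 recognition sequence in capitals.
IRT1 shared stretch: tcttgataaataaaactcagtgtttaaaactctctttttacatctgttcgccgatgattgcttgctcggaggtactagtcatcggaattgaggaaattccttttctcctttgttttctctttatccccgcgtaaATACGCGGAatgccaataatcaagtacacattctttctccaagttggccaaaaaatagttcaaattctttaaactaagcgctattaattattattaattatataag

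The recognition sequence searched was T or A, then CCG, then C or T, then G, then G or T, and a T or A at each of the last 2 positions, on both strands. The region held 1 match, at chrX:607349-607357 on the minus strand. Its centre is 71 bp inside the 5′ end of IRT1 and 1702 bp upstream of the IME1 start codon. Such a match is not rare. Of 7821 windows of 1542 bp tiling the nuclear genome, 1095 held at least 1, and so did 135 of the 1692 nuclear regions listed (7.98%).

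The IRT1 match differs from those in the promoters of 3 other Yrr1 sites, which are shown beside it because the alleles are compared at these sites below. Positions are counted from 1 at the 5′ end of the match as written on its own strand, with the IRT1 base first. The SNG1 match differs by C5T and the first SNQ2 match by T7G. At the second SNQ2 site and at YRR1, the minus-strand match differs by T7G and T9A, and the overlapping plus-strand match by T7G alone. Each line below gives 41 bp of the plus strand, at chrX:607333-607373, chrVII:894465-894505, chrIV:465297-465337, chrIV:465318-465358 and chrXV:642236-642276 in order, with the matches in capitals. At the second SNQ2 match and at YRR1 a further match on the other strand is shifted by 1 base, and both are within the capitals.
IRT1: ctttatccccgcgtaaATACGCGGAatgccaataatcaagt
SNG1: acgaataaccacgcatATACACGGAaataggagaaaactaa
SNQ2, first match: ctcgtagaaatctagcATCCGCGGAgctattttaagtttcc
SNQ2, second match: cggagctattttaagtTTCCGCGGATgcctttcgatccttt
YRR1: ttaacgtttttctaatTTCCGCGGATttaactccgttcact

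The IRT1 match covers 1 arm of an inverted repeat, with arms of 7 bp and a spacer of 2 bp, at chrX:607341-607356. The 41 bp are repeated here with the arms in capitals to show it.
IRT1 inverted repeat: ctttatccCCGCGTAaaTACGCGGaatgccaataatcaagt
Both arms, with any 2 bases between them, occurred 1 time in the nuclear genome. That pattern was read from the site itself, so its count is only a description. With the arms cut to their outer CCGCG there were 2 occurrences. Cut to CCG there were 611, of which 87 were inside listed regions. Matches to the Rme1 recognition sequence were found on the RPL43B side of the same region. On the minus strand they read gtacctcaaaa (chrX:607600-607610) and gaacctcaaga (chrX:607681-607691), 176 and 257 bp upstream of the 5′ end of IRT1 and 252 and 333 bp from the centre of the Yrr1 match. Of the 1542-bp windows of the genome, 1.02% held at least 1 Rme1 match. A sequence match describes the letters and is not evidence of binding by either factor.

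The strongest MACS2 peak of the region lay at much the same place in every library. Under the first parameter set (mn in the tables, used throughout unless stated) all 18 ChIP libraries had a MACS2 peak in the region, and under the second set (m2) all 18 did too. These make up 38 of the 4972 MACS2 peaks listed, 18 under mn and 20 under m2. Peaks with input above ChIP, of which the authors list 6217, never touched the region (0 of 6217). The 2 additional m2 peaks were small ones in YJM789 in 4NQO, at 606920 in replicate 1 with a fold of 1.60 and at 606572 in replicate 2 with a fold of 1.53.

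The 18 mn summits lay between 607309 and 607360, a range of 51 bp with an SD of 13.8 bp. Their median distance from the centre of the recognition sequence match was 8 bp, and 13 of 18 lay within 25 bp. Summits with the S96 allele were 0 to 7 bp from the match in all 6 libraries, while those with S96-I775E were 9 to 44 bp from it, all 6 on the IME1 side. YJM789 summits were 1 to 28 bp away, so they overlapped both. Under m2 the ranges drew together, from 1 to 17 bp with S96 and from 0 to 32 bp with S96-I775E. This order was noticed in the data and was not tested.

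Peaks with S96-I775E were also the narrowest. They spanned 242 to 335 bp in its 6 libraries, against 549 to 799 bp with S96 and 431 to 663 bp with YJM789, with no overlap between S96-I775E and either other allele. The MACS2 peaks of all 3 S96 libraries in YPD covered both Rme1 matches, and no mn MACS2 peak with S96-I775E reached either. Peak height differed between the alleles in the same direction, and its part in the widths was not tested.

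**Figure D1:**
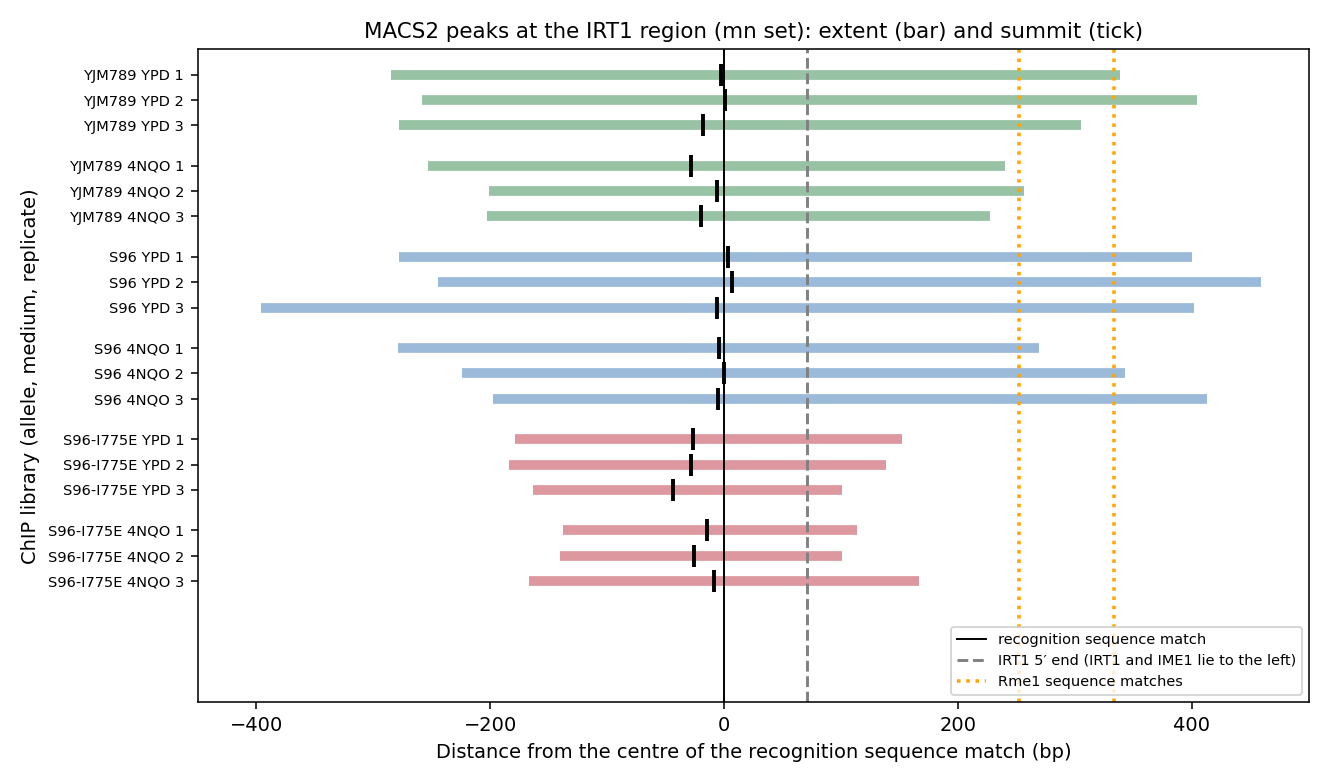
Extent of the MACS2 peak at the IRT1 region in each of the 18 ChIP libraries (bars, coloured by allele) and its summit (ticks), by distance in bp from the centre of the Yrr1 recognition sequence match. The dashed line is the 5′ end of IRT1 and the dotted lines are the Rme1 matches, 252 and 333 bp from the Yrr1 match; bars with S96-I775E span 242 to 335 bp and reach neither.

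The authors' CisGenome lists, 1 per group under each of 4 settings, held a peak at the region in all 24 lists. In the authors' deposited table it ranked first in 16 of the 24, which are all the lists of YJM789 and S96. With S96-I775E its rank ran from 2 to 7 in YPD and from 7 to 43 in 4NQO. The log2 fold change in the authors' deposited table ran from 1.66 to 3.70 over the 4 settings for S96 in YPD. For S96-I775E in YPD it ran from 0.79 to 1.46. CisGenome summits were spread more widely than those of MACS2, from 607337 to 607517, and in 4NQO 2 of the 4 peaks with S96-I775E began at 607450 or 607510, beyond the recognition sequence match. These peaks and 1 with S96-I775E in YPD (607350 to 607649) extended over or into the nearer Rme1 match, unlike the mn MACS2 peaks. The false discovery rate in the authors' deposited table was 1 for 21 of these 24 peaks, 0 for S96 in YPD under 1 setting, and 0.827 and 0.987 for the others.

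The level of binding was read from the rise, which the authors list per library: the coverage of ChIP above input at the region's highest point, less its mean over the surroundings. For S96 in YPD the rise was 327, 335 and 365 in replicates 1 to 3. For YJM789 in YPD it was 215, 228 and 252, and for S96-I775E in YPD 94.4, 104 and 98.0. The 3 alleles did not overlap in YPD, with S96 highest and S96-I775E lowest. In 4NQO the rise was 294, 231 and 254 for S96, and 237, 222 and 270 for YJM789, and these overlapped. It was 111, 107 and 155 for S96-I775E, below every library of the other alleles. As mean ± SD (n = 3), the order over groups was S96 in YPD (342 ± 19.8), S96 in 4NQO (259 ± 31.9), YJM789 in 4NQO (243 ± 24.4), YJM789 in YPD (232 ± 19.0), S96-I775E in 4NQO (125 ± 26.7) and S96-I775E in YPD (98.9 ± 5.09). Neighbours in this order do not differ beyond their spread from S96 in 4NQO to YJM789 in YPD. With S96-I775E the libraries of the media did not overlap, but the difference between the media did not pass the test given below.

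**Figure D2:**
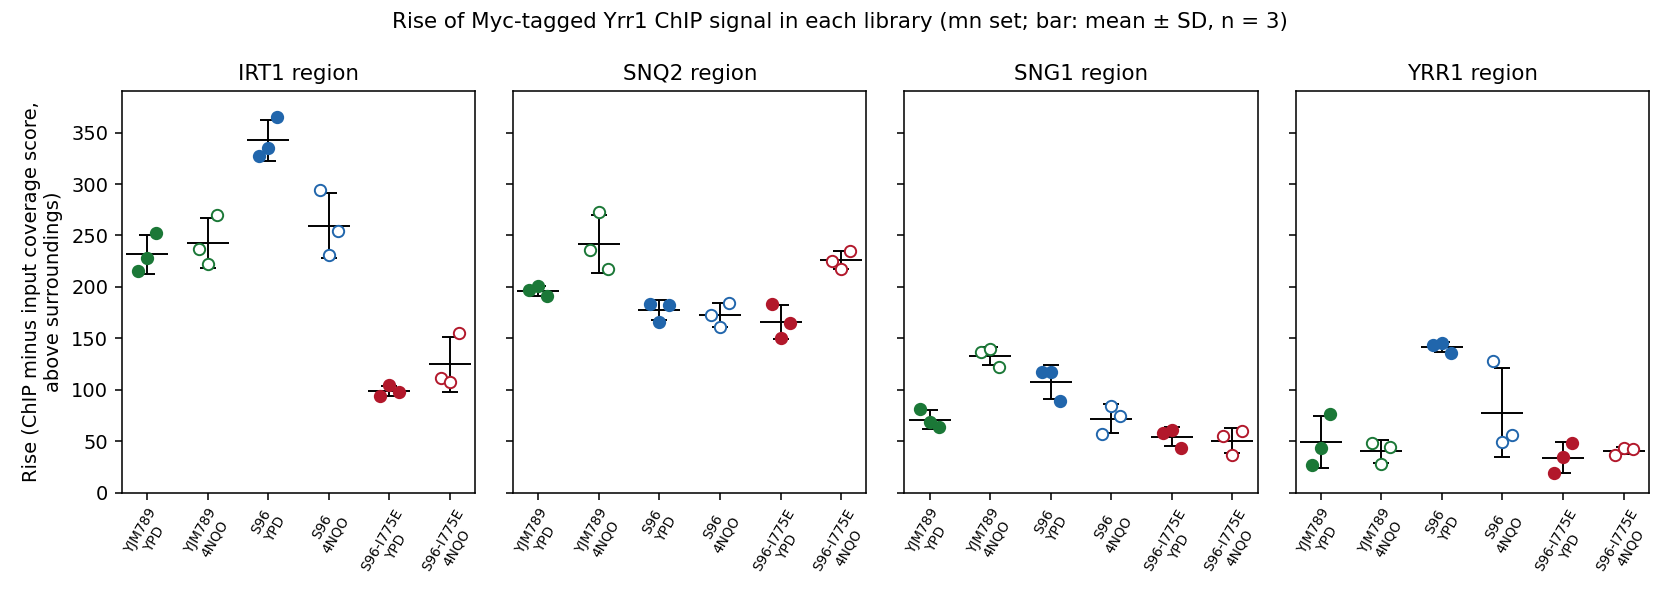
Rise of the ChIP signal (vertical axis, ChIP minus input coverage score above surroundings) in each library at the regions of IRT1, SNQ2, SNG1 and YRR1, with the mean ± SD of 3 libraries per group; filled points are YPD and open points 4NQO. At IRT1 the S96-I775E libraries lie between 94.4 and 155, below all others, which lie between 215 and 365.

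The region was the highest of all nuclear regions by rise in all 6 S96 libraries and in 5 of 6 YJM789 libraries, the exception being YJM789 in 4NQO replicate 2, where it was second. With S96-I775E it ranked between 3 and 7. The signal had 1 dominant point. In S96 in YPD the next maximum within the region reached at most 3.11% of the strongest point. In S96-I775E in 4NQO it reached 28.8%, 40.8% and 20.4%, while the strongest point itself was lower.

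Libraries differed across the table in ways that touch these values. The number of mn peaks per library ran from 7 to 630, and YJM789 in 4NQO had 630 and 519 in replicates 1 and 2 against 32 in replicate 3. In those replicates 1 and 2 the surroundings of the IRT1 peak scored 26.9 and 34.5, against 8.93 in replicate 3, while the rise was 237 and 222 against 270. S96 in YPD had the most reverse-test peaks (398 to 520) and the most regions with no rise listed, 281.3 per library on average against 68.3 to 149 in the other groups. At IRT1 its surroundings scored -11.7, -0.91 and -11.8, and those of YJM789 in YPD 2.05, -2.44 and 0.91. The part of these in the allele differences was not tested. Read totals are not given in the sources used here, so depth is unknown.

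The first question was whether the I775E change alters binding at the site. The S96-I775E rise was 3.44-fold lower than that of S96 in YPD and 2.09-fold lower in 4NQO. On the log2(rise + 1) scale the rise fell by 1.78 ± 0.11 (SE) in YPD, with an adjusted p of 1.74e-12 (limma, Benjamini-Hochberg over 1350 tested regions). In 4NQO it fell by 1.07 ± 0.11, with an adjusted p of 1.54e-07 from limma. Of all tested regions, 6.81% were called in the YPD comparison and 1.85% in the 4NQO comparison, with 4.96% and 0.593% lower, and the IRT1 region ranked 1 and 2 by p. Medians over all tested regions were -0.24 and -0.03, so both differences exceed the general shift. They stayed called under each of the 30 other settings run, including each omitted library. Over these settings the limma adjusted p rose to as much as 0.00036 in YPD and 0.0386 in 4NQO.

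S96-I775E differs from YJM789 Yrr1 as well. Its rise was 2.33-fold lower in YPD, a log2 difference of -1.22 ± 0.11 (limma adjusted p = 1.59e-08), and 1.96-fold lower in 4NQO, a log2 difference of -0.97 ± 0.11 (limma adjusted p = 2.10e-06). Called regions made up 2.15% and 3.85% of those tested (0.667% and 3.19% lower), and the IRT1 region ranked 1 by p in both. These comparisons share the S96-I775E libraries with the ones above. Over the other settings their limma adjusted p rose to as much as 0.0205 in YPD and 0.0337 in 4NQO. Without YJM789 in 4NQO replicates 1 and 2, an omission chosen after seeing the data, the difference in 4NQO was -1.13 (limma adjusted p = 0.000277), the 1 library left being assumed to vary like the other groups.

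The difference between the alleles of YJM789 and S96 was smaller in size. In YPD, where their libraries did not overlap, the YJM789 rise was 1.48-fold lower, a log2 difference of -0.56 ± 0.11 with a limma adjusted p of 0.00872, in a comparison that called 2.07% of regions (1.56% lower). The median over all tested regions was -0.19, and with the library medians set equal the difference was -0.38 and no longer called (limma adjusted p = 0.137). The call was also lost without YJM789 in YPD replicate 1 (-0.51, limma adjusted p = 0.0625) and without a mean-variance trend (limma adjusted p = 0.260). In 4NQO, where 3.41% of regions were called, the difference was -0.09 ± 0.11 (limma adjusted p = 0.699, 95% interval -0.32 to 0.13). Its sign turned without S96 in 4NQO replicate 1 and without YJM789 in 4NQO replicates 1 and 2 together.

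Fold enrichment in the MACS2 peaks gave the same order of alleles with a different denominator, a background level. Taken as pileup over fold, this background lay between 38.3 and 50.6 pileup units at this site. It varied little within a group (SD of 0.026 to 1.31 units), and the libraries of a group share 1 input. In YPD the fold was 5.35, 5.65 and 5.90 with S96, 3.91, 3.93 and 4.41 with YJM789, and 2.26, 2.41 and 2.22 with S96-I775E. In 4NQO it was 5.06, 4.19 and 4.51 with S96, 4.25, 4.32 and 4.59 with YJM789, and 2.44, 2.33 and 3.02 with S96-I775E. S96-I775E again lay below all libraries of the other alleles in both media. Over both media its fold was 2.09 times lower than with S96 and 1.74 times lower than with YJM789 (exact permutation tests within medium, two-sided, n = 6 against 6, adjusted p = 0.0100 for each over 4 contrasts). The unadjusted p of each was 0.005, the smallest that the 400 arrangements can give. YJM789 was 1.20 times lower than S96 by the same exact test (adjusted p = 0.0467), with a log2 difference of -0.47 in YPD and -0.06 in 4NQO. That call did not survive the omission of any 1 of 8 libraries: YJM789 in YPD replicates 1 and 2, YJM789 in 4NQO replicates 1 and 2, S96 in YPD replicates 1, 2 and 3, and S96 in 4NQO replicate 1. The adjusted p from the exact test was then 0.0533 to 0.0867.

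SNQ2 served as a comparison within each library, since it was bound in all 18. Its promoter (chromosome IV 464940 to 465905) holds the matches printed above. The SNQ2 rise was 184, 166 and 182 with S96 in YPD, 197, 200.7 and 191 with YJM789 in YPD, and 183, 150 and 165 with S96-I775E in YPD. By rise in YPD, S96-I775E and S96 thus overlapped at SNQ2, with a log2 difference of -0.10 ± 0.09 (limma adjusted p = 0.536, 95% interval -0.28 to 0.08). In 4NQO the SNQ2 rise was 225, 218 and 235 with S96-I775E against 173, 161 and 184 with S96, a log2 difference of 0.39 ± 0.09 (limma adjusted p = 0.0130). So in the cells with I775E the 4NQO comparison had the SNQ2 promoter higher and the IRT1 site lower than with S96.

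The ratio of the IRT1 rise to the SNQ2 rise in the same library was 1.78, 2.02 and 2.001 with S96 in YPD and 1.703, 1.43 and 1.38 in 4NQO. It was 1.09, 1.14 and 1.32 with YJM789 in YPD and 1.01, 0.813 and 1.24 in 4NQO. With S96-I775E it was 0.516, 0.695 and 0.593 in YPD and 0.495, 0.492 and 0.660 in 4NQO. The 3 alleles did not overlap in either medium, and SNQ2 exceeded IRT1 in all 6 S96-I775E libraries but in none of the 6 S96 libraries. The ratio was 2.99 times lower with S96-I775E than with S96, 1.91 times lower than with YJM789, and 1.56 times lower with YJM789 than with S96 (exact permutation tests within medium, two-sided, n = 6 against 6). Each gave an adjusted p of 0.00667 over 4 contrasts and an unadjusted p of 0.005, the smallest possible. Between YJM789 and S96 the ratio differed by -0.71 in YPD and -0.58 in 4NQO on the log2 scale. In 4NQO the difference lay in SNQ2, where the rise with YJM789 was 236, 273 and 217, above all 3 S96 libraries (0.48 ± 0.09, limma adjusted p = 0.00109), while the IRT1 rise differed by -0.09.

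With the fold in place of the rise, the IRT1 to SNQ2 ratio was on average 1.90 ± 0.263 with S96, 1.26 ± 0.218 with YJM789 and 0.683 ± 0.0583 with S96-I775E (SD, n = 6 libraries over both media). S96-I775E was 2.77 times lower than S96 and 1.83 times lower than YJM789, each with an adjusted p of 0.0100 by the exact permutation test, and YJM789 was 1.52 times lower than S96 (exact test, adjusted p = 0.0133). Part of this lay in SNQ2, whose fold was higher with S96-I775E than with S96, without overlap in either medium. It was 3.38 ± 0.230 against 2.73 ± 0.224 in YPD and 3.78 ± 0.134 against 2.65 ± 0.146 in 4NQO (SD, n = 3). With YJM789 the SNQ2 fold was 3.73 ± 0.0377 in YPD and 3.10 ± 0.263 in 4NQO.

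**Figure D3:**
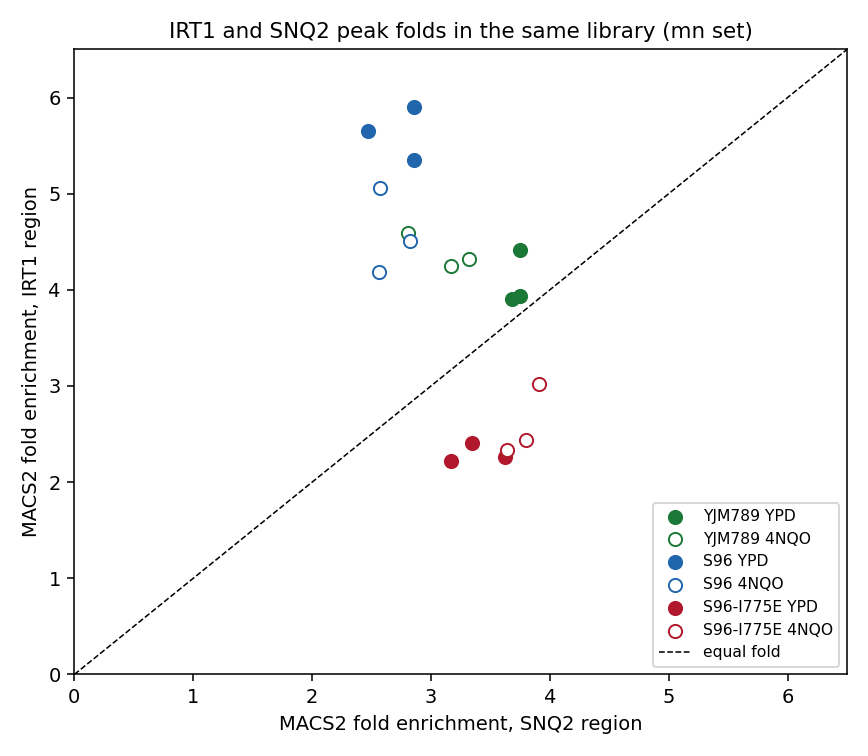
MACS2 fold enrichment at the IRT1 region (vertical axis) against that at the SNQ2 region (horizontal axis) in each of 18 libraries, with a dashed line where they are equal. All 6 S96-I775E libraries lie below the line, at IRT1 folds of 2.22 to 3.02, and the other 12 lie above it.

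By rise in YPD, though not by fold, other Yrr1 sites were also lower with I775E. SNG1, a gene for resistance to nitrosoguanidine (chromosome VII 893849 to 894948), had a rise of 108 ± 16.4 with S96 and 54.3 ± 9.29 with S96-I775E in YPD (SD, n = 3). That is 1.97-fold lower with I775E (limma adjusted p = 0.00503), but in 4NQO the difference was not called (-0.51, limma adjusted p = 0.236). The MACS2 fold at SNG1 in YPD was 1.95 ± 0.155 with S96 (n = 3) and 1.84 ± 0.183 with S96-I775E (n = 2), within their spread. The YRR1 promoter itself (chromosome XV 642006 to 642721) was 4.36-fold lower in YPD (141 ± 5.01 against 33.9 ± 14.8, limma adjusted p = 0.000318) and not called in 4NQO (-0.78, limma adjusted p = 0.298). Under m2 the YRR1 rises in YPD were 119.5 ± 6.73 and 50.4 ± 36.9. The MACS2 fold at YRR1 went the other way, 1.55 ± 0.125 with S96 and 1.69 ± 0.126 with S96-I775E. With SNG1 as the reference in place of SNQ2, the ratio of rises was lower with S96-I775E than with S96 by 0.68 on the log2 scale (a difference of -0.68, exact permutation adjusted p = 0.0400). It was not called between S96-I775E and YJM789 (-0.19, exact adjusted p = 0.627) or between YJM789 and S96 (-0.48, exact adjusted p = 0.170). SNG1 had no mn peak in S96 in 4NQO replicate 1 or S96-I775E in YPD replicate 1, and YRR1 none in YJM789 in YPD replicates 2 and 3.

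The second question was whether 4NQO changes binding at the site. Of the 3 alleles, S96 alone gave a difference that passed the test. All 3 S96 libraries in 4NQO lay below all 3 in YPD, a log2 difference of -0.40 ± 0.11 (limma adjusted p = 0.0433) or 1.32-fold, in a comparison that called 2.59% of regions (1.19% lower) and had a median of -0.13. The call is not a firm one. It was lost with 5 other settings, of which setting the library medians equal gave -0.30 (limma adjusted p = 0.169). It was also lost without any 1 of 9 libraries: S96 in YPD replicates 1, 2 and 3, S96 in 4NQO replicates 2 and 3, YJM789 in YPD replicates 1, 2 and 3, and S96-I775E in YPD replicate 3. The difference was then between -0.44 and -0.32, with a limma adjusted p of 0.0506 to 0.153.

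With YJM789 the 4NQO libraries overlapped those in YPD (0.07 ± 0.11, limma adjusted p = 0.792, 95% interval -0.16 to 0.29; 6.81% of regions called), while the median over all regions was 0.25. With the library medians set equal the same difference was -0.19. With S96-I775E all 3 libraries in 4NQO lay above those in YPD, by 0.31 ± 0.11, which did not pass (limma adjusted p = 0.140; 2.59% of regions called). The log2 fold enrichment changed by -0.30 with S96, where all 3 libraries in 4NQO lay below those in YPD, by 0.17 with S96-I775E and by 0.10 with YJM789. The mean of these opposing values was -0.01 (exact permutation test within allele, adjusted p = 0.911, n = 9 against 9), which says nothing of any 1 allele.

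The response to 4NQO differed between S96-I775E and S96, by 0.72 ± 0.16 on the log2 scale (interaction in limma, adjusted p = 0.0147), a comparison that called 2.59% of regions (1.93% higher) and had a median of 0.21. This call was lost with the library medians set equal (0.54, limma adjusted p = 0.0930), with empty values as 0 (limma adjusted p = 0.0570) and without a mean-variance trend (limma adjusted p = 0.302). The response of YJM789 less that of S96 was 0.47 ± 0.16 (limma adjusted p = 0.0820, 3.93% of regions called), and that of S96-I775E less that of YJM789 was 0.25 ± 0.16 (limma adjusted p = 0.452, 27 of 1350 regions called). These 3 comparisons share groups.

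**Figure D4:**
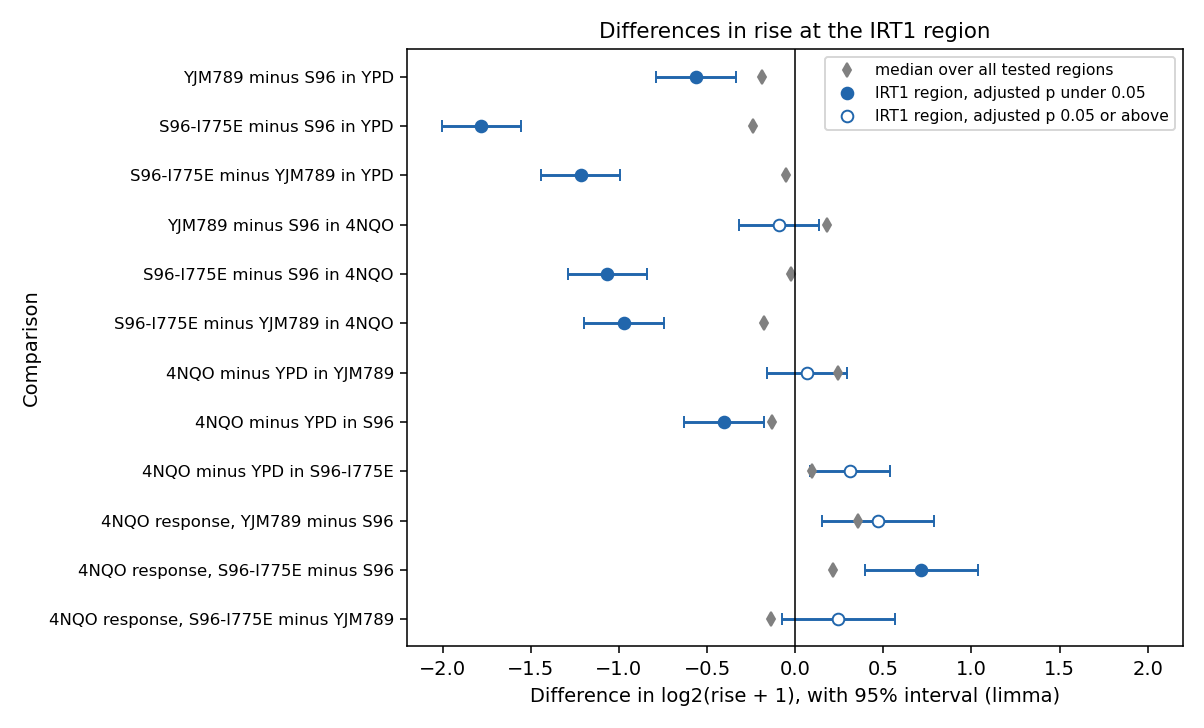
Differences in log2(rise + 1) at the IRT1 region for 12 comparisons (points, with 95% intervals from limma; filled where the adjusted p is under 0.05) and the median over all 1350 tested regions (diamonds). The 4 comparisons of S96-I775E with another allele lie between -1.78 and -0.97, away from their medians.

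Relative to SNQ2, the IRT1 rise was 1.18 times lower in 4NQO than in YPD over all alleles (a log2 difference of -0.24, exact permutation test within allele, adjusted p = 0.0238, n = 9 against 9). By rise, SNQ2 itself was higher in 4NQO with S96-I775E (0.45 ± 0.09, limma adjusted p = 0.00651) and with YJM789 (0.29 ± 0.09, limma adjusted p = 0.0441). By MACS2 fold SNQ2 was also higher with S96-I775E, at 3.38 ± 0.230 in YPD and 3.78 ± 0.134 in 4NQO (SD, n = 3). With YJM789 the SNQ2 fold was lower in 4NQO, at 3.73 ± 0.0377 in YPD and 3.10 ± 0.263 in 4NQO. The ratio of folds differed by -0.26 with S96, 0.005 with S96-I775E and 0.37 with YJM789, so their mean of 0.04 (exact adjusted p = 0.688) averages values of opposite sign. The call on the rise ratio was lost under the m2 set (-0.22, exact adjusted p = 0.0505) and with SNG1 as reference (-0.07, exact adjusted p = 0.710). It was also lost without YJM789 in YPD replicate 3, YJM789 in 4NQO replicate 2, S96-I775E in YPD replicate 2 or S96-I775E in 4NQO replicates 1 or 2 (-0.22 to -0.19, exact adjusted p of 0.0522 to 0.0568).

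Around the site, 2 other regions of the table lie within 10 kb, both on the RPL43B side. The nearest, 145 bp away over RPL43B, had a peak in 4 of 18 libraries and a rise of 25.5 to 71.6, with a median of 43.0. The other, 9614 bp away over RSM26 (a mitochondrial ribosomal protein gene) and the noncoding gene YNCJ0029W, also had a peak in 4 libraries and a median rise of 37.6. Neither passed the test in any of the 12 comparisons. Between the IRT1 region and IME1, and over IME1 itself, the table lists no region.

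Genes of meiotic entry were looked up in the same region table. Of 38 listed regulators and targets of IME1, 37 were matched by symbol, the other being IRT2, and 20 of them had a region within the gene or the 1000 bp before it. Among their 24 regions, the 23 other than the IRT1 site had a peak in at most 4 of 18 libraries, and 11 had none in any. The shares of all genes with a region, and of all regions with so few peaks, were not counted. These counts are therefore a description and do not set the meiotic genes apart. Of the 18 that could be tested, 2 were lower with S96-I775E than with S96 in YPD and none higher, against 4.96% of all regions lower. The 2 were the IRT1 site and SWI4, which encodes a cell cycle transcription factor and had no peak in any library (-0.94 ± 0.29, limma adjusted p = 0.0440). The median of the 18 was -0.48, against -0.24 over all regions. In 4NQO the IRT1 site alone was called of the 18, against 1.85% of all regions, and the medians were -0.41 and -0.03. Between YJM789 and S96 in YPD, the IRT1 site and RIM8 (-1.52 ± 0.31, limma adjusted p = 0.00872), which acts in the alkaline pH pathway, were lower, against 1.56% of all regions. RIM8 had no peak in any library.

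With 4NQO in YJM789, 1 of the 3 tested regions of SOK2, which encodes a repressor in the protein kinase A pathway, rose by 1.75 ± 0.33 (limma adjusted p = 0.00120). The other SOK2 regions were not called (0.10 and -0.86, limma adjusted p of 0.906 and 0.193). The region shared by IME4 and HOS2, which had no peak in any library, fell by 1.32 ± 0.40 (limma adjusted p = 0.0442). In S96 the region before SNF1, which encodes the glucose-repression kinase, fell by 1.23 ± 0.31 (limma adjusted p = 0.0251), as did the IRT1 site. That region before SNF1 overlaps YDR476C and not SNF1 itself. Between S96-I775E and YJM789 in YPD, the region over SPO11, which encodes the enzyme that makes meiotic DNA breaks, was higher (1.46 ± 0.39, limma adjusted p = 0.0444). It also overlaps NPR3 and YNCH0001W. Of all tested regions, 6.81% were called for 4NQO in YJM789 and 2.59% for 4NQO in S96. For S96-I775E against YJM789 in YPD the share was 2.15%. These single calls are a description and do not set the meiotic genes apart.

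For the drug resistance genes, where Yrr1 is known to act, 8 of 20 had a region and 9 of 11 regions could be tested. With S96-I775E against S96 in YPD, SNG1 and YRR1 were lower and none higher (median -0.38, against -0.24 over all), where 4.96% of all regions were lower. In 4NQO, SNQ2 was higher and none lower (median -0.27, against -0.03), where 1.85% of all regions were called.

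The regions whose rise followed that of the IRT1 site most closely were weak ones. Among 313 candidates with a rise in every library and a peak in at least 2 libraries of some group, Pearson's r to the IRT1 site over the 18 libraries had a median of 0.18. The 5 highest were OPT1 and PEX2 (0.76), RNH201 and LAT1 (0.73), TDH3 (0.72), RPP0 (0.72), and TEF2 and MUD1 (0.71). Over the 6 group means the 5 highest were MSG5 and COX5A (0.89), YRF1-7 (0.89), ASK1 (0.89), RPS11A (0.88) and RPP0 (0.87). YRF1-7 belongs to a family of near-identical telomeric copies, so its reads may be shared with other copies. Group mean rises at these 9 regions ran from 19.6 to 82.9, below the lowest of the IRT1 site. Over the same libraries r was -0.01 for SNQ2, 0.69 for SNG1 and 0.70 for YRR1. These correlations are descriptions over libraries that share 1 input per group and an unknown depth.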

How the data were processed

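Per the submitters' processing notes, CASAVA 1.7, Bowtie2 2.2.3, MACS2 2.1.0 and build sacCer3 were used, with no roles given. Each ChIP library has a deposited MACS2 list under each of the sets mn and m2, and no source used here says how these differ. Per the file headers a peak has a pileup signal, a fold enrichment (ratio) and p and q on the −log10 scale (q at least 1.3). The authors' CisGenome lists give for each group the maximum T (a score), the log2 fold, the Poisson p as −log10 and the false discovery rate (an adjusted p-value). The authors' region table gives a signal, the rise, and coverage scores it is made from, and 7.32% of its mn entries are empty. It is never counts, and depth is unknown. A further 15 numeric columns were not used.

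Differences in log2(rise + 1) were fitted in R 4.3.3 by limma 3.58.1 (mean-variance trend, 6 group coefficients, 18 libraries), over the 1350 regions where every group had 2 values or more, with Benjamini-Hochberg adjustment at 0.05. The limma fit was tested on simulated data. Differences on this scale slightly understate those of low regions. Single values were compared with exact permutation tests within medium or allele. The labels speak of triplicate cultures and of duplicate cultures split between media, and which libraries share a culture is not stated. P-values therefore reflect only how libraries of a group vary, which may be in part technical. The main tests treated libraries as independent, so any culture shared between media was not allowed for. Same-numbered libraries did not deviate together (r of -0.091 to 0.085 over 45 pairs), so numbers were not used to pair. Coordinates matched R64. The members, gene lists and tests were chosen with earlier results of these data known. Named regions were the 3 other Yrr1 sites, listed genes that passed (1 is not reported here), neighbours within 10 kb, and the 5 most alike regions by each of 2 rankings.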

Additional observations from a re-analysis of the deposited data

Results flagged for a closer look

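The response to 4NQO differed between alleles at 3 of the sites described, each by a limma interaction test. At the IRT1 site S96-I775E exceeded S96 by 0.72 on the log2 scale, with all 3 S96 libraries lower in 4NQO than in YPD and all 3 S96-I775E libraries higher. At SNQ2 S96-I775E exceeded S96 by 0.49 (limma adjusted p = 0.0377). At SNG1 YJM789 exceeded S96 by 1.48 (limma adjusted p = 0.00740).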

How the results depend on the processing

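Of 616 values of the 24 tested differences and the peak count under another setting, 560 kept their direction and their side of the threshold, 43 lost a call, 2 gained one and 11 turned, all of uncalled differences. The cause was not tested for any. S96-I775E against S96 or YJM789 kept its limma call in both media under all settings, with omitted libraries giving -1.82 to -1.73 and -1.23 to -0.97 against S96 and -1.27 to -1.16 and -1.14 to -0.87 against YJM789 (YPD, then 4NQO). With library medians equal, YJM789 less S96 in YPD was -0.38, 4NQO less YPD was -0.30 in S96 and turned to -0.19 in YJM789, and the S96-I775E less S96 response was 0.54. With no mean-variance trend these kept -0.56, -0.40 and 0.72 but not their calls (limma adjusted p of 0.260, 0.416 and 0.302). For 4NQO less YPD in S96 the m2 set gave -0.37 (0.0787), and empty values as 0 and omission of mitochondrial and plasmid regions -0.40 (0.0855 and 0.0812). Empty values as 0 gave the S96-I775E less S96 response as 0.72 (0.0570). A fit of the compared groups alone called the YJM789 less S96 response, 0.47 (0.0332). Omitting YJM789 in 4NQO replicates 1 and 2 turned YJM789 less S96 in 4NQO to 0.062.

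Omitting each library in turn gave -0.63 to -0.51 for YJM789 less S96 in YPD and -0.17 to 0.00036 in 4NQO. It gave -0.011 to 0.13, -0.50 to -0.32 and 0.14 to 0.41 for 4NQO less YPD in YJM789, S96 and S96-I775E. The responses ran from 0.39 to 0.56, 0.55 to 0.81 and 0.08 to 0.34 (YJM789 less S96, S96-I775E less S96, S96-I775E less YJM789). The log2 fold ran from -0.30 to -0.23, -1.12 to -1.02, -0.85 to -0.76 and -0.047 to 0.016 (YJM789 less S96, S96-I775E less S96, S96-I775E less YJM789, 4NQO less YPD). In the same order the rise ratio ran from -0.72 to -0.57, -1.65 to -1.53, -1.01 to -0.86 and -0.29 to -0.19, and the fold ratio from -0.65 to -0.55, -1.52 to -1.43, -0.92 to -0.82 and 0.0047 to 0.06. With SNG1 as reference the rise ratio gave -0.48, -0.19 and -0.075 where its call was lost, and m2 gave -0.22 for 4NQO less YPD. Under m2 the fold ratio for 4NQO less YPD turned to -0.048.

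With the replicate number as a replicate block, limma kept every call on the rise. By sign flips of same-numbered pairs, of which each allele contrast has 6, the fold (-0.26, -1.06, -0.80) and the fold ratio (-0.60, -1.47, -0.87) for the 3 allele contrasts were not called (exact adjusted p of 0.0625 to 0.167), and the rise ratio was. The 0.0625, for both S96-I775E contrasts in each measure, comes from the smallest p that 6 pairs can give. A call there would have needed another contrast to reach as low a p, so its loss decides nothing about them. All 18 libraries kept a peak at a −log10 q or a fold of at least 2. Counts of called regions ran from 40 to 162 around 92 for S96-I775E less S96 in YPD, and from 1 to 96 around 53 for the YJM789 less S96 response.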
